A study of Mus musculus with 27 samples.

Results

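Vascular endothelial growth factors, angiopoietins and their receptors were followed as a group of 10 genes in 27 RNA libraries of mouse heart. The 10 genes were Vegfa, Vegfb, Vegfc, Flt1, Kdr, Flt4, Tek, Tie1, Angpt1 and Angpt2. They were taken by gene symbol, and each was found among the 57683 features of the count table, 20031 of them protein-coding. All 10 passed the filter on low counts in each comparison.

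Every animal was C57BL/6J, an inbred laboratory strain, and no allele or agent other than the operations below was named. Whole embryonic hearts at E13.5, of unknown sex, gave 7 samples, called embryos here. The sample titles give E13.5 for all 7 and were followed, while the age field of the labels names an embryonic day that differs between them. The adult tissue was the apex of the ventricles, from unoperated animals of 6 weeks (6 samples) and 16 weeks (6 samples) and from sham-operated animals of 12 weeks (4 samples), each labelled male. A further 4 apexes, 3 labelled male and 1 female, came from animals of 12 weeks after 4 weeks of transverse aortic constriction (TAC), in which a band tied around the aortic arch raises the pressure load on the heart. The libraries were made from polyadenylated RNA. The labels number the samples of a group but do not say whether each is a separate animal or a pool, so p-values measure the spread between these samples. Embryonic whole hearts hold atria, valves and outflow tissue that an adult apex lacks, so age and tissue sampled cannot be told apart between those groups. In bulk RNA, fewer cells of a type and less RNA per cell cannot be told apart either.

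Vegfa is the main growth factor for blood vessels and is made in the heart largely by cardiomyocytes. It acts through Kdr (VEGF receptor 2), the main signalling receptor of endothelial cells, while Flt1 (VEGF receptor 1) binds Vegfa and Vegfb and holds Vegfa away from Kdr. Vegfc acts through Flt4 (VEGF receptor 3), which serves lymphatic vessels and sprouting blood vessels. Angpt1 activates the endothelial receptor Tek (also called Tie2) and steadies vessels, Angpt2 is released by endothelial cells and can oppose it, and Tie1 is the partner of Tek in the same receptor complex.

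Total counts ran from 7543375 to 12646039 per library at E13.5, from 2092270 to 2682955 in unoperated adults and from 7958592 to 11846819 in sham and TAC hearts. The labels give the unoperated adult libraries another base quality encoding than the others, so encoding and lower depth went with that group. Of the 19 male-labelled libraries, 7 held at most 3 counts summed over Y-linked genes (6 weeks replicates 1 and 6, 16 weeks replicates 1 and 6, sham replicates 2 and 3, TAC replicate 3), and the TAC library labelled female (TAC replicate 4) held 389. The main results are also given without these 8 libraries. Cardiomyocyte markers were present in all groups, with none of 12 at 0. Their summed level ran from 28094 to 38636 CPM (depth-scaled counts) at E13.5 and from 108708 to 167511 CPM in the 20 adult apexes. The 16 endothelial reference genes summed to 1160 to 1286 CPM at E13.5, 1567 to 1826 CPM in unoperated adults, 2046 to 2133 CPM in sham hearts and 2094 to 2475 CPM in TAC hearts. Pecam1, the best known of these, held 9 counts or fewer in every library, against 876 to 6301 counts of the junction gene Cdh5, so the sum rests on the other 15 genes. Of the exonic bases of Pecam1 18.9% lie in no other feature, against 100% for Cdh5. This count is low for heart tissue, and whether it reflects the counting or the expression was not tested.

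Levels of different genes are compared per kilobase of exon that no other feature shares, which is all of the exonic bases for 6 of the 10 genes and 60.9%, 84.6%, 91.9% and 82.7% for Vegfa, Flt1, Tek and Angpt1. On this scale Vegfb was the most abundant of the 10 genes in every group, from 70.8 CPM per kilobase at E13.5 to 271 at 16 weeks. Vegfa came next in the adult groups, at 141, 146, 117 and 171 CPM per kilobase at 6 weeks, 16 weeks, sham and TAC. At E13.5 Tie1 (41.6) lay between Vegfb and Vegfa (38.1). Kdr was the most abundant receptor in unoperated and sham hearts, at 48.3 to 51.1 CPM per kilobase, and stood at 51.9 beside Tie1 at 59.0 in TAC hearts. Vegfc, Angpt1 and Angpt2 were at the low end, each under 10 CPM per kilobase in every group. Flt4 and Flt1 were also under 10 at E13.5, at 8.59 and 7.79. At 6 and 16 weeks Flt4 (6.55 and 7.98) lay below Angpt1 (8.79 and 8.45). Angpt1 was the lowest of the 10 in TAC hearts, at 2.10 CPM per kilobase, against 5.52 in sham hearts. The embryos had the lowest group mean for 4 of the 10 genes, Vegfa, Vegfb, Flt1 and Kdr.

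**Figure D1:**
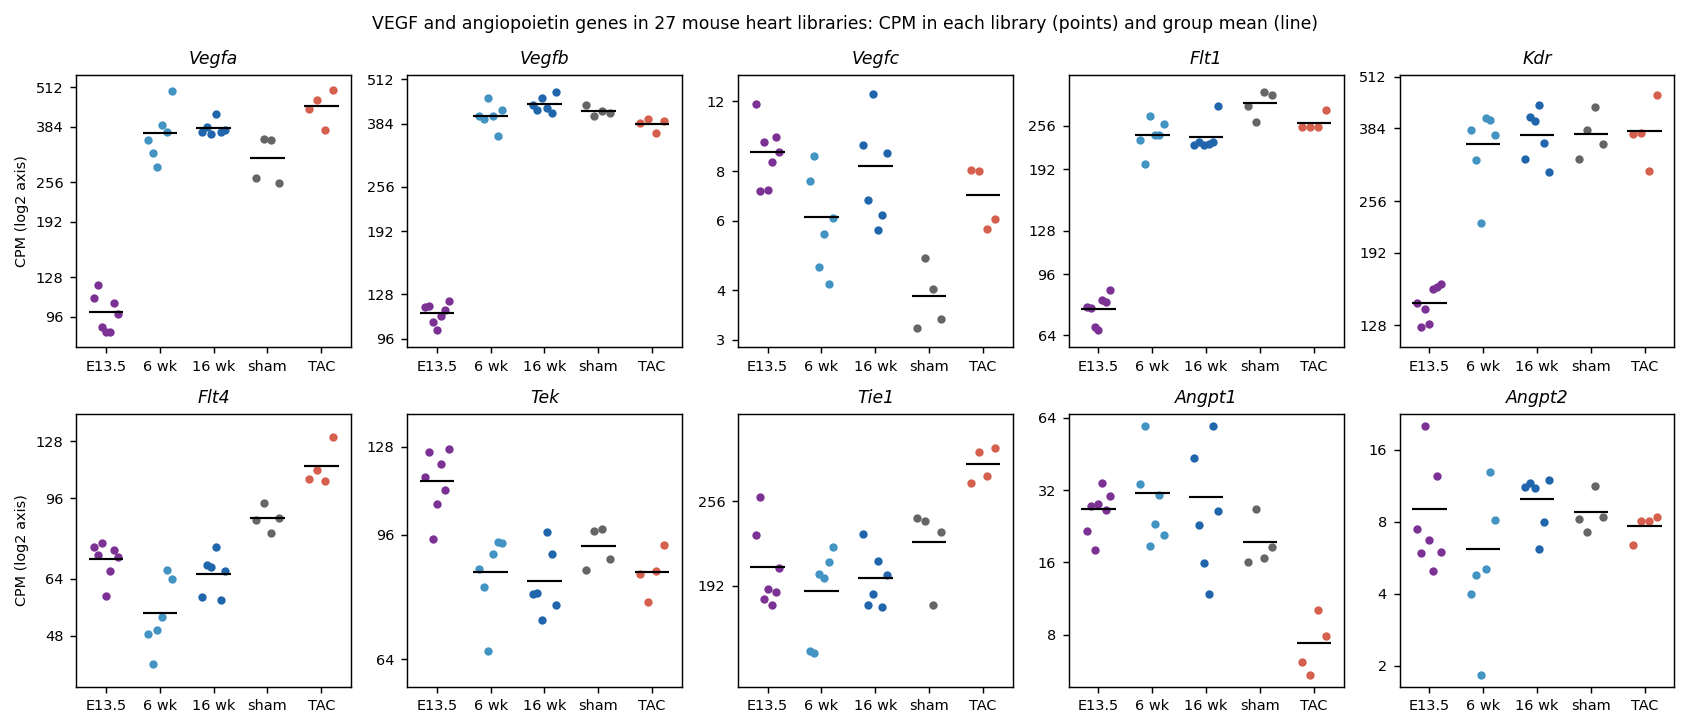
CPM of the 10 genes in each of the 27 libraries (points, log2 axis, library sizes scaled with TMM factors) with the mean of each group (line), by group on the x axis. Vegfa, Vegfb, Flt1 and Kdr lie lowest in the 7 embryos without overlap with any adult library, and Angpt1 lies lowest in the 4 TAC libraries (5.45 to 10.1 CPM).

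The promoters of 4 receptor genes are shown because their RNA moved in pairs: Flt1 and Kdr were lower at E13.5, and Flt4 and Tie1 were higher under TAC. Each sequence is the 250 bases before the annotated start, 5′ to 3′ on the gene's strand, from RefSeq on GRCm38.p6. Capitals mark AGGAAG and CGGAAG (2 forms of the core bound by ETS factors, the transcription factor family that marks endothelial genes), GGGCGG (the GC box) and TATAAA (the TATA box), on either strand. ACGTG (the core of hypoxia response elements) and TGACGTCA (the cyclic AMP response element) were searched too and are left in lower case.
Flt1, chr5:147726012-147726261, minus strand: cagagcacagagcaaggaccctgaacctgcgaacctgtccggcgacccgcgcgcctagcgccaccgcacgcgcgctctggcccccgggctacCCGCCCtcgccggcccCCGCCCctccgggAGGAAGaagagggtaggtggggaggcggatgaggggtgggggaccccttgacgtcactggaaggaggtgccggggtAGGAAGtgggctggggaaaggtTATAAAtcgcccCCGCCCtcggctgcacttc
Kdr, chr5:75978456-75978705, minus strand: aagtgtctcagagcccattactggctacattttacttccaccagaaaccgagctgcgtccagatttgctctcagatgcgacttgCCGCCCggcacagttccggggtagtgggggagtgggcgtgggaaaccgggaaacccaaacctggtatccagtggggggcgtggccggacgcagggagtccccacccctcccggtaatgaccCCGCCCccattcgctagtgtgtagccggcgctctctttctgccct
Flt4, chr11:49609429-49609678, plus strand: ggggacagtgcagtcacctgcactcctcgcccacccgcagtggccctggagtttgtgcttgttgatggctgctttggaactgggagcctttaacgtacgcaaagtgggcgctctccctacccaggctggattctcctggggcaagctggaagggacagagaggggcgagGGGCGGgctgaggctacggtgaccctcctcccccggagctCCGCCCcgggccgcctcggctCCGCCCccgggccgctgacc
Tie1, chr4:118489850-118490099, minus strand: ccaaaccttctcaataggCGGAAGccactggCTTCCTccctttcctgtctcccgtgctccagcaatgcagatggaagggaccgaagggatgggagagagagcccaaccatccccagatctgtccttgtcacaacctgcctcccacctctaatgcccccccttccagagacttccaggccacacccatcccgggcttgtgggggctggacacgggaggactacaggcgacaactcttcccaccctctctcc
Flt1 held AGGAAG at 129 and at 53 bases before its start, TATAAA at 31, GC boxes at 158, 142 and 19, and TGACGTCA at 81. Kdr held GC boxes at 166 and 45 bases and Flt4 held GC boxes at 81, 41 and 20. Tie1 held AGGAAG at 219 bases on the minus strand and CGGAAG at 232, and no GC box. Over all 32851 windows of this length, AGGAAG was in 29.5%, CGGAAG in 13.6%, GGGCGG in 32.7%, TATAAA in 12.4%, ACGTG in 16.6% and TGACGTCA in 1.55%, each counted on both strands. No 2 matches overlapped in these 4 windows. Entries were found for 8 of the 10 genes, and none for Angpt1 and Angpt2. A match describes letters and is not a shown binding site.

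The first comparison set hearts before birth against mature hearts. At E13.5 the RNA of the blood vessel growth factors Vegfa and Vegfb and of their receptors Flt1 and Kdr was 2.48-fold to 3.77-fold lower than in unoperated adults. The vessel and lymphatic genes Vegfc, Flt4 and Tek were higher, by 1.19-fold to 1.36-fold, and Tie1, Angpt1 and Angpt2 did not pass the test. In all, 3 of the 10 genes were higher and 4 lower by edgeR's quasi-likelihood test at a Benjamini-Hochberg adjusted p under 0.05. The same test called 83.8% of all 12766 features tested, 44.1% higher and 39.7% lower, so that a call was the common case in this comparison. Without the filter on low counts, the share of calls in the higher direction was 66.3%, beside 52.6% with it. The groups did not overlap for 4 of the 10 genes, against 54.5% of all features.

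Among the ligands, Vegfa (ENSMUSG00000023951, chr17:46153942-46169318 in mm9, minus strand) stood at 86.2, 98.2 and 121 CPM (lowest, median and highest) in the 7 embryos. In the adults it stood at 287, 359 and 497 CPM at 6 weeks and at 364, 373 and 422 CPM at 16 weeks. Every embryo lay below every adult, and the fitted log2 fold change was -1.91 ± 0.09 (SE), a 3.77-fold lower level (edgeR's quasi-likelihood test, Benjamini-Hochberg adjusted p = 1.07e-17). Vegfa shares 1677 exonic bases with a noncoding transcript on the same strand that held no counts. Vegfb (ENSMUSG00000024962, chr19:7056963-7062141, minus strand), a ligand of Flt1 tied in heart muscle to fatty acid handling and vessel survival, stood at 102, 116 and 123 CPM in the embryos. In the adults it reached 355 to 453 CPM at 6 weeks and 412 to 470 CPM at 16 weeks, again without overlap. Its log2 fold change was -1.89 ± 0.06 (edgeR, adjusted p = 4.48e-23).

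Vegfc (ENSMUSG00000031520, chr8:55162960-55272450, plus strand), the lymphatic growth factor, was scarce. It stood at 7.11, 8.95 and 11.8 CPM in the embryos, 4.16, 5.83 and 8.74 CPM at 6 weeks and 5.67, 7.84 and 12.5 CPM at 16 weeks, from 10 to 25 counts per adult library. The ranges overlapped. The log2 fold change of 0.34 ± 0.15 passed narrowly (edgeR, adjusted p = 0.0428). The call was lost against 16 weeks alone (0.11, edgeR adjusted p = 0.615), with a filter of 1 CPM (0.29, adjusted p = 0.0763), with the embryonic libraries thinned to adult depth (0.27, adjusted p = 0.171) and in 10 of the 19 fits that left out 1 library. Those were E13.5 replicates 1, 3 and 6, 6 weeks replicates 3, 4, 5 and 6 and 16 weeks replicates 2, 4 and 5, with log2 fold changes from 0.27 to 0.34. Against sham hearts, which held 3.22 to 4.84 CPM, the value was 1.13 (edgeR, adjusted p = 7.39e-06).

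Of the VEGF receptors, Flt1 (ENSMUSG00000029648, chr5:148373180-148537587, minus strand) stood at 66.3, 77.2 and 86.3 CPM in the embryos. The adults held 199, 241 and 273 CPM at 6 weeks and 225, 228 and 291 CPM at 16 weeks. No embryo reached the lowest adult, and the log2 fold change was -1.65 ± 0.07, 3.14-fold lower (edgeR, adjusted p = 1.69e-19). Kdr (ENSMUSG00000062960, chr5:76328852-76374483, minus strand) stood at 127, 145 and 161 CPM in the embryos, 226, 376 and 407 CPM at 6 weeks and 301, 376 and 438 CPM at 16 weeks. It also separated the groups, with a log2 fold change of -1.31 ± 0.10, 2.48-fold lower (edgeR, adjusted p = 5.64e-12). The adult with 226 CPM was 6 weeks replicate 3, well below the other adults.

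Flt4 (ENSMUSG00000020357, chr11:49422765-49466241, plus strand), the receptor of Vegfc, was not among the genes with low embryonic levels. It stood at 58.8, 72.3 and 76.8 CPM in the embryos, 41.7, 51.1 and 67.0 CPM at 6 weeks and 57.5, 67.1 and 75.2 CPM at 16 weeks. The embryos overlapped both adult ages, and the log2 fold change was 0.25 ± 0.08 (edgeR, adjusted p = 0.00363). The direction depended on which adults were taken. Against 6 weeks alone it was 0.38 (edgeR, adjusted p = 0.00136), against 16 weeks alone 0.08 (adjusted p = 0.375), and against the sham-operated hearts it turned to -0.39 (adjusted p = 8.16e-05). The sham libraries held 80.8 to 93.8 CPM of Flt4, above all 7 embryos.

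Of the angiopoietin receptors, Tek (ENSMUSG00000006386, chr4:94405980-94541667, plus strand) stood at 94.7, 116 and 127 CPM in the embryos, 65.6, 88.1 and 93.7 CPM at 6 weeks and 72.7, 79.3 and 96.9 CPM at 16 weeks. Only the lowest embryo, replicate 3, fell within the adult range. The log2 fold change was 0.45 ± 0.07, 1.36-fold higher (edgeR, adjusted p = 9.86e-07). Tie1 (ENSMUSG00000033191, chr4:118143796-118162666, minus strand) stood at 180, 190 and 260 CPM in the embryos, 153, 199 and 219 CPM at 6 weeks and 179, 193 and 229 CPM at 16 weeks. Its log2 fold change of 0.09 (95% interval -0.07 to 0.24) did not pass (edgeR, adjusted p = 0.304). It passed under upper-quartile scaling (0.20, adjusted p = 0.0129) and without the filter on low counts (0.26, adjusted p = 0.000366). Those settings also moved the median log2 fold change of all features from 0.07 to 0.19 and to 0.63.

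The angiopoietins were uneven between hearts of a group. Angpt1 (ENSMUSG00000022309, chr15:42256273-42508523, minus strand) stood at 18, 27.4 and 34.1 CPM in the embryos, 18.8, 26.8 and 59.2 CPM at 6 weeks and 11.8, 24.5 and 58.9 CPM at 16 weeks. The highest adults, 6 weeks replicate 2 and 16 weeks replicate 5, had more than any embryo, and the lowest adult less than any embryo. Its log2 fold change of -0.22 had a 95% interval of -0.76 to 0.33 (edgeR, adjusted p = 0.437). Angpt2 (ENSMUSG00000031465, chr8:18690263-18741547, minus strand) stood at 4.99, 6.69 and 20.1 CPM in the embryos, 1.83, 4.93 and 12.9 CPM at 6 weeks and 6.15, 11.1 and 11.9 CPM at 16 weeks. Unoperated adult libraries held 4 to 31 counts of it. Its log2 fold change of 0.22 had a 95% interval of -0.46 to 0.90 (edgeR, adjusted p = 0.537). Without E13.5 replicate 3, the embryo with 20.1 CPM, the value was -0.09. On the reverse strand, Angpt1 shares 303 and 654 exonic bases with noncoding transcripts that held 18 and 21 counts over all libraries. Reads of the strands may not have been told apart, as strand use in counting is not given in the sources used here.

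Without the male-labelled adults that held at most 3 Y-linked counts, again 3 of the 10 genes were higher and 4 lower at E13.5. Log2 fold changes were then -1.88 for Vegfa, -1.62 for Flt1, -1.35 for Kdr and 0.44 for Tek.

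**Figure D2:**
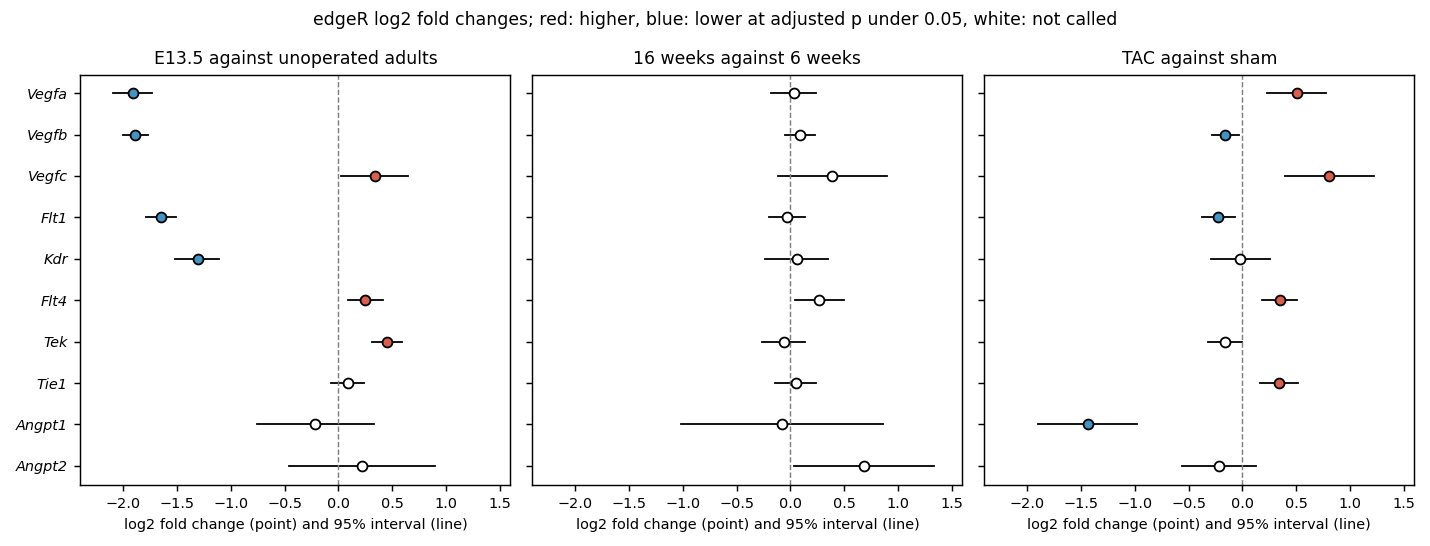
Log2 fold changes of the 10 genes (points, x axis) with 95% intervals (lines) in the 3 comparisons, from edgeR's quasi-likelihood test. Red marks genes called higher, blue genes called lower and white genes not called; Vegfa, Vegfb, Flt1 and Kdr lie far left at E13.5 (-1.91 to -1.31) and Angpt1 far left under TAC (-1.44).

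Ratios of gene pairs in the same library do not depend on library scaling. Per kilobase, Flt4 stood at 0.376 to 0.501 of Kdr in the embryos, at 0.112 to 0.194 at 6 weeks and at 0.144 to 0.195 at 16 weeks. The lymphatic and sprouting receptor was thus a larger part of the pair in every embryo than in any unoperated adult. The mean log2 ratio was 1.55 higher at E13.5 (exact permutation test, two-sided, n = 7 and 12, p = 1.98e-05, the smallest that the 50388 assignments can give, adjusted p = 0.000298 over 15 ratio tests). Tek per kilobase stood at 0.550 to 0.764 of Tie1 in the embryos, 0.372 to 0.632 at 6 weeks and 0.392 to 0.572 at 16 weeks. These ranges overlapped, and the mean log2 ratio was 0.37 higher (exact permutation test, p = 0.0024, adjusted p = 0.018). Without E13.5 replicate 5 that ratio was 0.32 higher and no longer passed (exact permutation test, adjusted p = 0.0562). Flt1 to Kdr was lower by 0.35 on the log2 scale (exact permutation test, p = 0.0129, adjusted p = 0.0612). It passed when 6 weeks replicate 3 or 16 weeks replicate 2, 3, 4 or 6 was left out, with adjusted p from 0.0269 to 0.0495 in the exact permutation test. Vegfb to Vegfa differed by 0.03 and Angpt2 to Angpt1 by 0.21, neither past the threshold (exact permutation tests, adjusted p = 0.79 and 0.771).

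**Figure D3:**
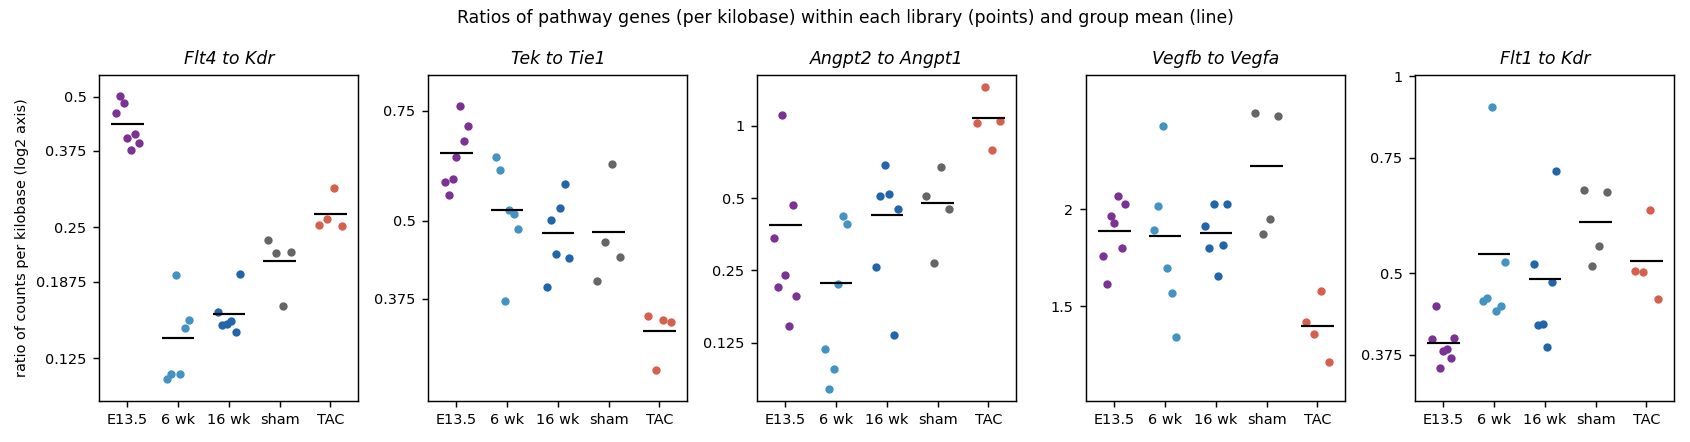
Ratio of counts per kilobase for 5 gene pairs in each library (points, log2 axis) with the group mean (line), by group. Flt4 to Kdr lies highest in the embryos, while under TAC Angpt2 to Angpt1 lies above and Tek to Tie1 and Vegfb to Vegfa lie below all sham libraries.

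Since the receptors are made mainly by endothelial cells, they were also set against the summed counts of the 16 endothelial reference genes in the same library. Of these, 15 were tested at E13.5, and 5 were higher and 10 lower than in unoperated adults, so the reference itself was not constant. Its sum was lower in the embryos, at 1160 to 1286 CPM against 1567 to 1826 CPM, which raises every embryonic value on this scale. Per 1000 reference counts, Flt1 stood at 56.1, 60.4 and 70 (lowest, median and highest) in the embryos and at 120 to 165 in unoperated adults. Kdr stood at 99.1, 116 and 133 in the embryos and at 129 to 261 in adults. Both VEGF receptors thus remained low on this scale. The log2 differences were -1.17 for Flt1 and -0.82 for Kdr (exact permutation tests, adjusted p = 8.93e-05 and 0.000286 over 18 tests). The other receptors were high: Tek stood at 78.5 to 103 against 37.3 to 55.0, Tie1 at 153 to 202 against 92.1 to 136 and Flt4 at 50.7 to 63.7 against 25.3 to 43.9. None of these 3 overlapped the adults on this scale, while in CPM all 3 did. The CPM ranges of 54.5% of all features did not overlap, and no such share was worked out on the reference scale. The log2 differences of Tek, Tie1 and Flt4 were 0.93, 0.56 and 0.73 (exact permutation tests, adjusted p = 8.93e-05 each). Without the reference, the log2 fold changes from edgeR were 0.45, 0.09 and 0.25, and that of Tie1 did not pass. Angpt2 differed by 0.62 without passing (exact permutation test, adjusted p = 0.166). With the 8 adults whose Y-linked counts matched their label, the 5 differences were -1.15, -0.86, 0.91, 0.57 and 0.71 for Flt1, Kdr, Tek, Tie1 and Flt4. Endocardial markers, of the endothelium lining the heart chambers, were higher at E13.5 for 6 of 6 genes tested, and their summed level ran from 607 to 782 CPM against 134 to 201 CPM in unoperated adults. Of these 6, the filter on low counts kept 4 between the adult ages. The rest, Hapln1 and Gata5, passed it here only with the embryos, which largely fixed their direction. The part of endocardial markers in the receptor values was not tested.

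**Figure D4:**
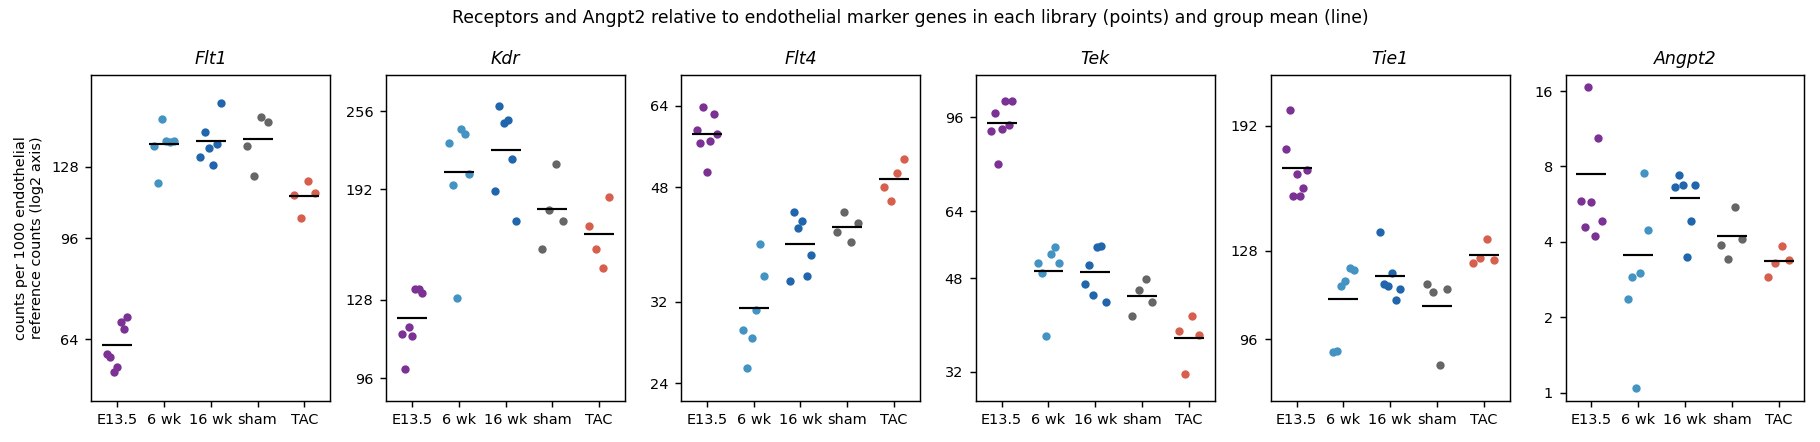
Counts of 5 receptors and Angpt2 per 1000 counts of the endothelial reference genes in each library (points, log2 axis) with the group mean (line). Flt1 lies low and Flt4, Tek and Tie1 lie high in the 7 embryos, without overlap with unoperated adults. The reference sum itself is lower in the embryos.

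Other genes of the pathway moved in both directions at E13.5, where 83.8% of all features were called, 44.1% higher and 39.7% lower. Of 8 further ligands, co-receptors and regulators, 7 were tested, with 2 higher and 4 lower. Ptprb, the endothelial phosphatase that restrains Tek, was lower by the most (log2 fold change -2.38 ± 0.06). Among ligands, Pgf, which binds Flt1, was lower (-0.57 ± 0.15) and Figf, which encodes VEGF-D, was higher (0.99 ± 0.29). The co-receptors Nrp1 (-0.44 ± 0.07) and Nrp2 (-0.41 ± 0.14) were lower. These 5 passed edgeR's test with adjusted p from 1.61e-24 to 0.00973. Of 43 downstream signalling genes 42 were tested, 18 higher and 18 lower, among them the kinase Src (2.80 ± 0.10) and the phosphatidylinositol 3-kinase subunit Pik3r1 (-2.08 ± 0.15). Of 25 hypoxia pathway genes tested, 9 were higher and 14 lower. The partner factor Arnt2 (6.62 ± 0.30) and Hif3a (4.91 ± 0.13), a member of the hypoxia-inducible factor family, were higher by the most. The glucose transporter Slc2a1 was higher (3.61 ± 0.09), and Epas1, the oxygen-regulated transcription factor of endothelium, was lower (-3.31 ± 0.07). Of 13 tip cell and sprouting genes tested, 6 were higher and 7 lower, with Unc5b higher (1.87 ± 0.11) and Pdgfb, which draws mural cells to vessels, lower (-2.18 ± 0.10). Medians were -0.41, -0.04, -0.35 and -0.65 for these 4 lists, beside 0.07 for all features. Between the adult ages the filter on low counts kept 6, 39, 23 and 12 genes of these lists, without Figf and Arnt2. Those not kept there passed it here only with the embryos, which largely fixed their direction.

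Markers of other cells also differed at E13.5, again beside calls for 83.8% of all features. Lymphatic markers were higher for 2 and lower for 3 of 7 tested, mural cell markers for 5 and 7 of 12, cardiomyocyte markers for 1 and 10 of 12, fibroblast markers for 6 and 5 of 11 and macrophage markers for 1 and 9 of 10. Red cell markers were higher for 7 of 7 and atrial markers for 4 of 6, with none lower. Between the adult ages the filter on low counts kept 5 lymphatic, 11 mural, 5 red cell and 3 atrial markers. The rest of those tested here passed it only with the embryos, which largely fixed their direction. Mural cell markers, of pericytes and smooth muscle, summed to 2936 to 3504 CPM in the embryos and 4528 to 6226 CPM in unoperated adults. Without Des these sums were 2121 to 2501 and 1929 to 2808 CPM, overlapping. Their part in the pathway's values was not tested.

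**Figure D5:**
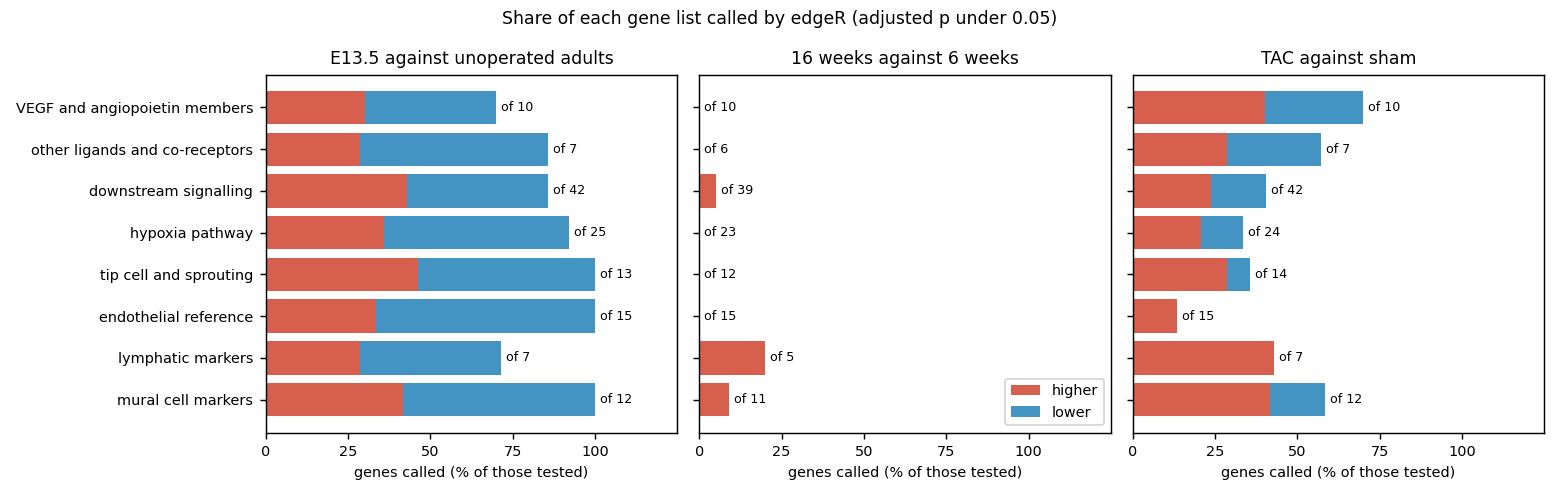
For each gene list (y axis), the percentage of the genes tested (x axis) that edgeR called higher (red) or lower (blue) in the 3 comparisons, with the number tested beside each bar. Of the 10 VEGF and angiopoietin genes, 7 were called at E13.5, 0 between adult ages and 7 under TAC.

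The second comparison asked whether the genes changed between young and older adults. None of the 10 passed between 16 and 6 weeks by edgeR's quasi-likelihood test, where 2.51% of 10394 features did, 1.32% higher and 1.19% lower. Before adjustment 2 had p under 0.05, and DESeq2, limma-voom and the fit without the libraries that contradict their sex label also called 0. Vegfa and Kdr had log2 fold changes of 0.03 (95% interval -0.18 to 0.24) and 0.06 (-0.24 to 0.35). Vegfb stood at 0.09 (-0.05 to 0.23), Flt1 at -0.03 (-0.20 to 0.14), Tek at -0.06 (-0.26 to 0.14) and Tie1 at 0.05 (-0.14 to 0.24). No bound of these 6 intervals lay further than 0.35 from 0. The scarce genes were less well bounded. Vegfc had a 95% interval of -0.12 to 0.90 and Angpt1 of -1.02 to 0.86, with Angpt1 spread over 18.8 to 59.2 CPM at 6 weeks and 11.8 to 58.9 CPM at 16 weeks.

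The genes with unadjusted p under 0.05 were Flt4 and Angpt2. Flt4 had a log2 fold change of 0.27 ± 0.11 (edgeR, adjusted p = 0.218). Angpt2 had 0.68 ± 0.31 (edgeR, adjusted p = 0.272). At 6 weeks, replicate 5 had the highest value of Angpt2, 12.9 CPM, and replicate 3 the lowest, 1.83 CPM from 4 counts. Per 1000 endothelial reference counts, Flt4 was 0.33 and Angpt2 0.91 higher at 16 weeks on the log2 scale (exact permutation tests, adjusted p = 0.0571 and 0.074). Both passed when 6 weeks replicate 5 was left out, with differences of 0.40 and 1.17 (exact permutation tests, adjusted p = 0.013 and 0.0223). For 0 of the 10 genes were the ages free of overlap, against 2.04% of all features. Of the other lists, 2 of 39 downstream genes were higher, Ppp3ca (0.44 ± 0.10) and Hspb1 (0.43 ± 0.10), and 0 of 6 further ligands and co-receptors, 0 of 23 hypoxia genes, 0 of 12 tip cell genes and 0 of 15 endothelial genes passed. Among lymphatic markers, Prox1, the transcription factor of lymphatic identity that cardiomyocytes also express, was higher (0.34 ± 0.09), the only call of 5 tested (edgeR, adjusted p = 0.047). Fibroblast markers were lower for 3 of 11, endocardial markers for 1 of 4, and mural, cardiomyocyte and red cell markers each had 1 gene higher of 11, 12 and 5. Macrophage and atrial markers had none of 10 and 3.

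The third comparison set 4 weeks of pressure overload against sham operation. Under TAC the ligands Vegfa and Vegfc and the receptors Flt4 and Tie1 were higher, by 1.26-fold to 1.75-fold, and Angpt1 was 2.71-fold lower. Vegfb and Flt1 were lower by small amounts, 1.12-fold and 1.17-fold, and Kdr, Tek and Angpt2 did not pass. By edgeR's quasi-likelihood test 4 of the 10 genes were thus higher and 3 lower, where 38.0% of 14555 features were called, 19.6% higher and 18.4% lower. The ranges of the groups did not overlap for 6 of the 10, against 35.7% of all features. Without the TAC and sham libraries whose sex label was contradicted, 4 genes were higher and 2 lower, with Flt4 at 0.29, Tie1 at 0.24 and Flt1 at -0.30 on the log2 scale (edgeR, adjusted p = 0.0119, 0.0309 and 0.0069) and Vegfb no longer past the threshold.

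Vegfa stood at 265, 352, 348 and 254 CPM in sham replicates 1 to 4 and at 438, 466, 376 and 501 CPM in TAC replicates 1 to 4. Every TAC library lay above every sham library. On the log2 scale the difference was 0.51 ± 0.13 (edgeR, adjusted p = 0.00919). The sham libraries fell into pairs: replicates 2 and 3, with at most 3 Y-linked counts, held more Vegfa than replicates 1 and 4. Egln3, a hypoxia-induced prolyl hydroxylase, stood at 139 and 145 CPM in the former and at 64.0 and 68.0 CPM in the latter. In TAC hearts Egln3 stood at 107 to 177 CPM. Of the TAC libraries, replicate 3, with 1 Y-linked count, was the lowest for both genes, at 376 CPM of Vegfa and 107 CPM of Egln3. Egln3 was singled out after its values were seen. Without the libraries that contradict the sex on their label, which leaves 2 against 2, the log2 fold change of Vegfa was 0.76 (edgeR, adjusted p = 8.57e-06).

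Vegfc stood at 3.22, 4.84, 4.02 and 3.38 CPM in sham hearts and at 8.04, 8.01, 5.70 and 6.04 CPM in TAC hearts. It was higher in 4 of 4 TAC libraries than in any sham library, on 26 to 75 counts per library. The log2 fold change was 0.81 ± 0.19, 1.75-fold higher (edgeR, adjusted p = 0.00376), and 1.24 without those libraries whose sex label was contradicted (adjusted p = 0.000851). Vegfb stood at 433, 403, 416 and 412 CPM in sham and at 386, 396, 363 and 390 CPM in TAC hearts. The lowest sham library lay just above the highest TAC library, and the log2 fold change of -0.16 ± 0.06 was just past the threshold (edgeR, adjusted p = 0.0491). It was lost on leaving out any library other than sham replicate 2 (-0.16 to -0.13, edgeR adjusted p = 0.0578 to 0.151), without a filter on low counts (-0.10, adjusted p = 0.35) and with all 27 libraries in 1 fit (-0.12, adjusted p = 0.256).

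Flt1 stood at 292, 262, 320 and 314 CPM in sham and at 253, 254, 254 and 284 CPM in TAC hearts. Sham replicate 2 lay among the TAC values. The log2 fold change was -0.23 ± 0.07 (edgeR, adjusted p = 0.0223). The call was lost without sham replicate 3, sham replicate 4, TAC replicate 1 or TAC replicate 2 (-0.21 to -0.18, edgeR adjusted p = 0.0581 to 0.078), without the filter (-0.17) and with all 27 libraries (-0.19). Kdr stood at 324, 380, 432 and 351 CPM in sham and at 372, 375, 302 and 462 CPM in TAC hearts, fully overlapping. Its log2 fold change was -0.02 (95% interval -0.29 to 0.26; edgeR, adjusted p = 0.921), and its sign changed under several settings.

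Flt4 stood at 85.9, 93.8, 80.8 and 86.8 CPM in sham and at 106, 111, 105 and 131 CPM in TAC hearts. All TAC libraries lay above all sham libraries, with a log2 fold change of 0.35 ± 0.08 (edgeR, adjusted p = 0.00305). Its mean under TAC, 114 ± 12.2 CPM (SD, n = 4), was the highest of the 5 groups, and no library of another group reached it. Tie1 stood at 242, 239, 180 and 231 CPM in sham and at 272, 303, 279 and 307 CPM in TAC hearts. It likewise did not overlap and was highest under TAC, with a log2 fold change of 0.34 ± 0.08 (edgeR, adjusted p = 0.00538). Sham replicate 3 was the low one of its group, and without it the log2 fold change was 0.25 (edgeR, adjusted p = 0.0123). Tek, the partner of Tie1, stood at 85.6, 97.3, 98.0 and 88.8 CPM in sham and at 84.4, 77.2, 85.2 and 93.0 CPM in TAC hearts. These ranges overlapped, and the log2 fold change of -0.16 ± 0.08 did not pass (edgeR, adjusted p = 0.103).

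Angpt1, the ligand that activates Tek, stood at 16.0, 26.8, 16.7 and 18.5 CPM in sham and at 6.14, 5.45, 10.1 and 7.90 CPM in TAC hearts. All 4 TAC libraries lay below all 23 other libraries. Against sham the log2 fold change was -1.44 ± 0.21 (95% interval -1.90 to -0.98; edgeR, adjusted p = 0.000243), on 51 to 233 counts per library. It ran from -1.63 to -1.25 over the 8 fits that left out 1 library, and was -1.62 without those libraries whose sex label was contradicted (edgeR, adjusted p = 1.98e-05). Angpt2, its counterpart, stood at 8.20, 7.25, 11.3 and 8.39 CPM in sham and at 6.36, 8.01, 8.06 and 8.36 CPM in TAC hearts, overlapping. Its log2 fold change was -0.22 (95% interval -0.56 to 0.13; edgeR, adjusted p = 0.315).

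Ratios of gene pairs were compared in the same way. Per kilobase, Angpt2 stood at 0.269 to 0.673 of Angpt1 in sham hearts and at 0.794 to 1.46 in TAC hearts. The mean log2 ratio was 1.22 higher, without overlap. Tek stood at 0.401 to 0.617 of Tie1 in sham and 0.289 to 0.352 in TAC hearts, a log2 difference of -0.51. Vegfb stood at 1.86 to 2.66 times Vegfa in sham and 1.27 to 1.57 times in TAC hearts, a difference of -0.67. Flt4 stood at 0.165 to 0.234 of Kdr in sham and 0.252 to 0.308 in TAC hearts, a difference of 0.37. These 4 pairs separated the groups, as did the CPM ranges of 35.7% of all features. For ratios no such share was worked out. Each pair gave the smallest p that 4 against 4 allows, 0.0286 in an exact permutation test with 70 assignments. After adjustment over 15 tests that became 0.0612, so none passed. Flt1 to Kdr overlapped (-0.20, exact permutation test, p = 0.171). Without those libraries whose sex label was contradicted the 4 differences were 1.35, -0.39, -0.91 and 0.19, with 2 libraries a group.

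Relative to the endothelial reference, 3 receptors separated the groups, as did the CPM ranges of 35.7% of all features. No such share was worked out on the reference scale. Per 1000 reference counts Flt1 stood at 123 to 156 in sham and 104 to 121 in TAC hearts, Flt4 at 39.5 to 44.0 and 45.7 to 53.1, and Tie1 at 88.2 to 115 and 123 to 133. The log2 differences were -0.33, 0.24 and 0.25 (exact permutation tests, adjusted p = 0.0571 over 18 tests, p = 0.0286 each, the smallest p that 4 against 4 allows). Tek (-0.26), Angpt2 (-0.32) and Kdr (-0.13) overlapped. Of the endothelial reference genes, 2 of 15 were higher and 0 lower, the junction gene Cldn5 (1.16 ± 0.16) and Mmrn2 (0.25 ± 0.07). Over all features 38.0% were called. Lymphatic markers were higher for 3 of 7 tested and lower for 0, namely Pdpn (0.88 ± 0.20), Itga9 (0.67 ± 0.08) and Foxc2 (0.63 ± 0.23). Pdpn and Itga9 are made by other cells too, and the lymphatic chemokine gene Ccl21a was at 0 in all groups. The other 4 did not pass, with Lyve1, a lymphatic and macrophage receptor, at -0.46 ± 0.18 (edgeR, adjusted p = 0.0662), Reln at -0.22, Prox1 at -0.08 and Mmrn1 at 0.10. The list's median was 0.10, beside 0 for all features. The 8 lymphatic markers summed to 236 to 295 CPM in sham and 289 to 327 CPM in TAC hearts.

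Markers of other cell types also differed between the groups, where 38.0% of all features were called. Mural cell markers were higher for 5 and lower for 2 of 12. Higher were Des (0.88 ± 0.07), which cardiomyocytes make too, Cnn1 (0.88 ± 0.30), Cspg4 (0.46 ± 0.14), Mcam (0.38 ± 0.08) and Pdgfrb (0.23 ± 0.06). Lower were the pericyte genes Abcc9 (-0.60 ± 0.07), a channel subunit, and Rgs5 (-0.43 ± 0.10). The summed level of the 12 mural markers was 6197 to 6758 CPM in sham and 9500 to 10529 CPM in TAC hearts. Des alone made up 3873 to 4200 CPM of it in sham and 6987 to 8366 CPM in TAC hearts. Without Des the other 11 summed to 2324 to 2558 and 2036 to 2528 CPM, overlapping. Fibroblast markers were higher for 7 of 11 and lower for 0, with summed levels of 1303 to 1440 and 2659 to 5205 CPM, and macrophage markers for 5 of 10, with 551 to 613 and 761 to 1077 CPM. Cardiomyocyte markers were higher for 6 and lower for 3 of 12, endocardial markers for 1 and 1 of 4, atrial markers higher for 2 of 4 and red cell markers for 0 of 6. Nppa, the atrial natriuretic peptide that ventricles make under load, stood at 208 to 243 CPM in sham and 2461 to 3893 CPM in TAC hearts. The part of these shifts in the pathway's values was not tested.

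Of the 8 further ligands, co-receptors and regulators, 7 were tested under TAC, with 2 higher and 2 lower, beside 38.0% of all features called. Svep1, a matrix protein that binds Tie1, was higher (log2 fold change 1.65 ± 0.16), at 45.6 to 49.0 CPM in sham and 119 to 196 CPM in TAC hearts. Hspg2, which encodes the basement membrane proteoglycan perlecan, was also higher (0.43 ± 0.08). Pgf was lower (-1.04 ± 0.26), but it stood at 15.9 and 17.2 CPM in sham replicates 1 and 4 and at 8.75 and 8.19 CPM in replicates 2 and 3, against 4.91 to 8.06 CPM in TAC hearts. Ptprb was lower (-0.32 ± 0.07). These 4 had edgeR adjusted p from 9.52e-05 to 0.00911. Figf (0.23 ± 0.19), Nrp1 (0.13 ± 0.08) and Nrp2 (-0.01 ± 0.09) did not pass.

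Downstream of the receptors, 10 of 42 genes tested were higher and 7 lower, among them the kinase gene Prkcb (1.10 ± 0.30), the adaptor Shb (0.90 ± 0.11), the small heat shock protein gene Hspb1 (0.79 ± 0.14) and, lower, Pik3r1 (-1.01 ± 0.14). Of 24 hypoxia genes tested 5 were higher and 3 lower, with Higd1a (0.90 ± 0.21), Bnip3 (0.38 ± 0.10) and Ldha (0.31 ± 0.07) higher and Vldlr (-0.48 ± 0.08) lower. Of 14 tip cell and sprouting genes 4 were higher and 1 lower, with Trp53i11 (1.14 ± 0.15), Esm1 (1.04 ± 0.27) and Unc5b (0.70 ± 0.15) higher and the peptide hormone gene Apln lower (-0.63 ± 0.20). All named here passed edgeR's test. The medians of the 3 lists were 0.03, 0.20 and 0.20, beside 0 for all features. Over all features 38.0% were called, 19.6% higher and 18.4% lower, and the share called in each of the 3 lists was near that.

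Across the 27 libraries, Vegfa, Vegfb, Flt1 and Kdr ran in parallel, with r of 0.93 to 0.98 between pairs that hold Vegfa or Vegfb, a pattern that includes the gap between embryos and adults. The 9870 coding genes with a mean of at least 5 CPM were ranked by Pearson correlation of log2 CPM with each member. The nearest genes were Slc2a4, the insulin-sensitive glucose transporter, for Vegfb (r = 1.0), Ptprb and Dgat2 for Flt1 (0.99 each) and Pcdh12, an endothelial cadherin, for Kdr (0.96). With the group means removed, the spread between hearts of a group remained, and the likeness changed. Kdr then lay nearest to Ets1 (r = 0.82) and Elk3 (0.81), which encode ETS factors, and among the other members to Tek (0.63). Vegfa was next to Tek at 0.62, to Flt4 at 0.56 and to Kdr at 0.54. Flt1 lay nearest to Sgk1 (0.80) and had an r of -0.04 with Kdr. Angpt1 lay nearest to the desmosome gene Dsg2 (0.80), and its correlation with Flt4 was -0.52. These values are descriptions over 27 libraries that share depth and scaling within groups.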

How the data were processed

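RNA of 27 mouse heart samples was measured as counts of single-end reads per feature. Per the submitters' processing notes, which name Bowtie, TopHat 1.3.0, HTSeq and the build mm9 (NCBIM37), the authors deposited unnormalized counts for 57683 features, 20031 of them coding. Strand use in counting is not given in the sources used here. The 27 single-library files held the same values as the series table.

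Groups came from the labels. The 10 genes and the 13 supporting lists (ligands and co-receptors, downstream, hypoxia, tip cell and 9 cell type lists) were chosen with earlier results of these data known. All 10 genes are named, and others come from the 4 called genes of largest change in a list. Nrp1, Nrp2, Pgf and Figf, all called mural markers under TAC, and values beside a result are named apart from that rule. One gene, Robo4, stood in 2 lists.

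Each comparison was fitted with edgeR 4.0.16 (R 4.3.3) on its own groups: TMM scaling, filterByExpr (count 10, total 15), robust quasi-likelihood test, Benjamini-Hochberg adjustment over all features kept, called at 0.05. Alternatives used DESeq2 1.42.0 and limma 3.58.1. Levels are CPM with TMM factors over 27 libraries from 18754 features. Ratios are log2 of counts plus 0.5, with exact two-sided permutation tests in Python 3.11.15. Intervals are 95%. The procedures were tested on simulated data first.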

Additional observations from a re-analysis of the deposited data

Results flagged for a closer look

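In 4 of 50 sets of libraries (10 genes in 5 groups), 1 library stood apart from the rest of its group by Dixon's gap criterion, where chance gives about 1 in 20. Vegfa was highest in 16 weeks replicate 4, at 422 CPM. Flt1 was highest in 16 weeks replicate 6, at 291 CPM, and in TAC replicate 4, the library labelled female, at 284 CPM. Angpt1 was highest in 6 weeks replicate 2, at 59.2 CPM against 18.8 to 33.8 CPM in the other 5.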

How the results depend on the processing

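Of the 10 genes, the number called at E13.5 was 7, and 5 to 8 under the other settings. Between adult ages it was 0 throughout, and under TAC it was 7, and 5 to 7 elsewhere. Replicate numbers did not pair the samples (correlations of same-numbered libraries from -0.063 to 0.062), so the block is only a numbering. With the replicate block 7 genes were called at E13.5, 0 between ages and 5 under TAC, while 0 of the 15 ratios and 0 of the 18 endothelial ratios passed, against 2 and 5. Fewer samples entered at E13.5 and under TAC. For ratios the block put a sign-flip test of differences between same-numbered libraries in place of the group permutation. The smallest p found with that sign-flip test was 0.0312, which is also the lowest it can give with so few differences. After adjustment a ratio could therefore pass only if most ratios reached that p together. The 0 counts for ratios thus say little about how firm the ratios are. Directions turned mainly where the difference was small. Against sham hearts in place of unoperated adults, Flt4 was at -0.39, Tie1 at -0.22, Angpt1 at 0.34, Angpt2 at -0.03, Angpt2 to Angpt1 at -0.56 and Vegfb to Vegfa at -0.26; against 16 weeks alone Angpt2 was at -0.16. Kdr under TAC turned to 0.04 without the filter, 0.02 with all 27 libraries in 1 fit and 0.10 without the libraries against their sex label, an alternative chosen after seeing the data, which also moved Tek between ages to 0.04. Flt1 to Pecam1 and Cdh5 (in effect Cdh5) was at -0.03 between ages. The cause was not tested. Leaving out 1 library in turn left 1 to 3 ratios past the threshold. Between ages it moved Angpt1 over -0.41 to 0.22, Vegfa over -0.04 to 0.14, Kdr over -0.05 to 0.11, Tie1 over 0.00 to 0.10, Flt1 to Kdr over -0.22 to 0.05, Vegfb to Vegfa over -0.04 to 0.14 and, per endothelial reference, Flt1 over -0.02 to 0.05, Kdr over 0.00 to 0.20 and Tek over -0.08 to 0.03. At E13.5 it moved Angpt2 over -0.09 to 0.40, Angpt2 to Angpt1 over -0.10 to 0.39 and Vegfb to Vegfa over -0.01 to 0.07, and under TAC Kdr over -0.12 to 0.07. Depth was lowest in unoperated adults, with 4 to 31 counts of Angpt2 and 10 to 25 of Vegfc per library. Plain totals and RLE factors kept the embryos lowest for the same 4 genes.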

Other observations

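In both unoperated adult groups, the library highest for Angpt1 was the lowest for Nppa. Angpt1 was highest in 6 weeks replicate 2 (59.2 CPM) and 16 weeks replicate 5 (58.9 CPM), and Nppa, the natriuretic peptide gene, stood there at 79.1 CPM against 244 to 1067 CPM and at 620 CPM against 863 to 1430 CPM. In sham hearts replicate 2 was highest for Angpt1 (26.8 CPM) and only narrowly lowest for Nppa (208 CPM against 216 to 243 CPM). In TAC hearts replicate 3 was highest for both (10.1 and 3893 CPM). Of the embryos, replicate 5 was highest for Angpt1 (34.1 CPM) with Nppa at 1108 CPM, where the lowest was 832 CPM. The atrial gene Myl7 held 59 counts in 6 weeks replicate 2, against 0 or 1 in the others of 6 weeks. It held 3 counts in 16 weeks replicate 5 and 4 in sham replicate 2, the highest of their groups. In TAC replicate 3 it held 2, the lowest of its group. The part of atrial tissue in these values was not tested. These libraries were singled out after their values were seen.

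Among the embryos, Angpt2 was highest in replicates 3 (20.1 CPM) and 6 (12.4 CPM), against 4.99 to 7.41 CPM in the others. Those 2 embryos were also highest for the pericyte genes Pdgfrb (197 and 168 CPM against 114 to 138) and Rgs5 (47.5 and 51.3 CPM against 17.3 to 37.5) and for Nrp2 (103 and 73.5 CPM against 50.5 to 67.5). Of the 12 mural markers these embryos were the highest 2 for 4, Pdgfrb, Rgs5, Kcnj8 and Notch3, and not for the other 8. They were the only embryos with more than 6 summed Y-linked counts, 690 and 826. These embryos and genes were singled out after their values were seen.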
